A study of Mus musculus with 6 samples.

Results

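The genes described are 34 members of the interferon response and of antigen presentation by MHC class I, in hearts of C57BL/6J mice. They were taken by name from a fixed list, chosen with earlier results of these data known. The mice were 14 days old and had been given, for 1 week, either ETX or the control, phosphate-buffered saline (PBS). What ETX stands for is not given in the labels, which name no other allele or agent. Each group held 3 hearts, called biological replicates in the labels (PBS replicates 3, 9 and 12, ETX replicates 6, 7 and 10), with 1 Affymetrix whole-transcript array for the total RNA of each heart. All values are log2 signals, on which a difference of 1 is a 2-fold change; 3 arrays per group limit the precision. A transcript cluster is a set of array probes read as 1 value. Of the 34 members, 29 had a cluster annotated to them alone, out of 19938 such genes on the array. They were 21 genes of the type I response, 3 of the type II response and 5 of class I presentation. Isg15, Gbp2, H2-K1 and H2-D1 lay only on clusters annotated to several genes, and Ifi44 was not found in the annotation used here, so these 5 have no value of their own. All 29 passed the filter on dim genes, which left 14953 genes to test.

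Interferons are secreted signals of antiviral defence. Type I interferons bind the receptor pair IFNAR1 and IFNAR2 and act through factors such as STAT2 and IRF9 on the interferon-stimulated response element (ISRE) in front of antiviral genes. Interferon gamma, the type II interferon, acts on genes with a gamma-activated site (GAS), and induces IRF1, guanylate-binding proteins and the class I pathway. Class I molecules are a heavy chain with beta-2-microglobulin, loaded in the endoplasmic reticulum with peptides that the TAP transporter brings in. In the heart, endothelial cells, fibroblasts, macrophages and cardiomyocytes can all hold such transcripts. In RNA of whole hearts, fewer cells of a type and less RNA per cell cannot be told apart.

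The ISRE is the sequence that many members share. The promoter table, from RefSeq on GRCm38.p6, held 28 of the 34 members; Nlrc5, Oas2, Parp14, Rtp4, Tap2 and Usp18 were not in it. The 250 bases before the most upstream start of each gene were searched on both strands for the ISRE core, GAAA and GAAA with any 2 bases between them. It was present in 10 of the 28 (35.7%), against 3.04% of 17491 protein-coding genes: Bst2, Ifit1, Ifit3, Isg15, Oas1a, Rsad2 and Stat2 of the type I genes, Gbp2 and Gbp3 of the type II genes, and B2m of the class I genes. The letters of the GAS, TTC and GAA with any 3 bases between them, were in 5 of 28 (17.9%), against 6.65%. A match describes letters and shows no binding. Stretches of 100 bases are shown for the 5 of the 10 that were measured here and whose stretch lies outside the annotated gene, because their values are described below. They are printed 5′ to 3′ along the gene's strand with the ISRE core in capitals, where overlapping matches run together. They lie at chr19:34640749-34640848 (plus strand, Ifit1), chr12:26456518-26456617 (minus, Rsad2), chr8:71537545-71537644 (minus, Bst2), chr10:128270248-128270347 (plus, Stat2) and chr2:122147503-122147602 (plus, B2m), upstream of each gene.
Ifit1: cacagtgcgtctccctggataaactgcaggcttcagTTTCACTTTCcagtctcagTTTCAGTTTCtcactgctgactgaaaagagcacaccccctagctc
Rsad2: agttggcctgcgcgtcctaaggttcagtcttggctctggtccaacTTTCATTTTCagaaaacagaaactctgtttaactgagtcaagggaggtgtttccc
Bst2: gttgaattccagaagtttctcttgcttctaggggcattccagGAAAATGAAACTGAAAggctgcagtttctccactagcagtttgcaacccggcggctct
Stat2: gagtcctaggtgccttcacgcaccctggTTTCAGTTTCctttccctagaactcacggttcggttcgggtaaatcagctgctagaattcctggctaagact
B2m: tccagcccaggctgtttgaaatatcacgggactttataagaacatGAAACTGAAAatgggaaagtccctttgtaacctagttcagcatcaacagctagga
Ifit1 carried 2 separate cores and Bst2 an overlapping pair, and Rsad2, Stat2 and B2m carried 1 each.

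Some hearts differed in tissue content. Transcripts of lung epithelium, such as Sftpc, were high in PBS replicates 3 and 9 (mean of 9 markers 6.06 and 7.36, against 3.70 in PBS replicate 12 and 3.78 to 3.82 in ETX). Atrial transcripts, such as Nppa, were high in PBS replicate 3 and in ETX replicates 6 and 7 (mean of 8 markers 7.76 to 7.81) and lower in PBS replicates 9 and 12 and ETX replicate 10 (6.10 to 6.41). Xist, which marks female animals, was at 8.34 to 8.41 in PBS replicate 3 and ETX replicates 6 and 10, and at 2.61 to 2.87 in the others. Ventricular and general cardiomyocyte markers were present in all 6 hearts (mean of 10 markers 11.90 to 12.03).

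No member passed the test of ETX against PBS, yet nearly all lay lower in ETX on average. Of the 29 members, 28 had a negative ETX minus PBS difference, all but Nlrc5, whose clusters disagreed in sign, against 51.6% of all genes tested; with a further quantile normalization 27 did, as Dtx3l turned to 0.021. Their median difference was -0.25, a fold of 1.19, against -0.0063 over all genes. None was called at a limma adjusted p of 0.05, against 2.43% of all genes called lower and 1.14% called higher. At an unadjusted p under 0.05 there were 11 members, all lower, against 13.1% of all genes that were lower at that level. Of the 533 genes called over the whole array 68.1% were lower in ETX, a share of 78.6% after centring each array and of 52.4% after another quantile normalization. The ETX and PBS values of 6 members did not overlap with ETX lower (16.1% of all genes), and those of 1 did not overlap with ETX higher (11.6%).

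**Figure D1:**
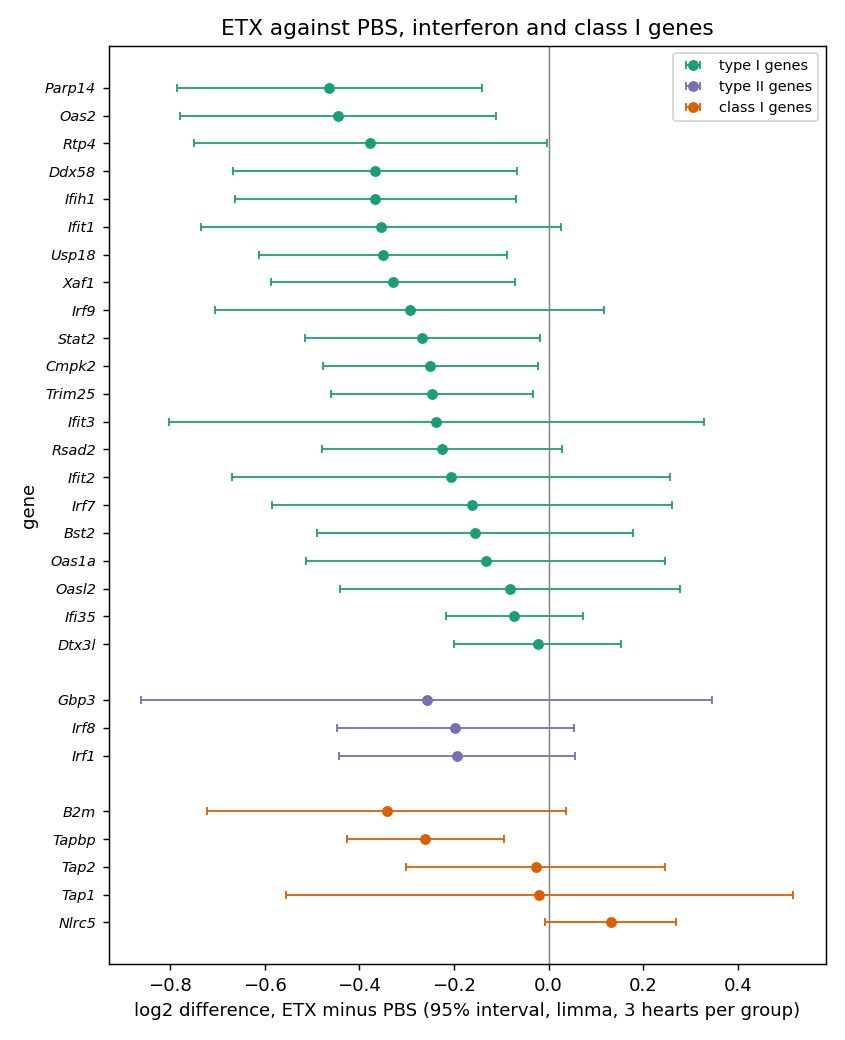
Log2 difference between ETX and PBS for the 29 measured genes, with points for the estimate and bars for the 95% interval from limma (3 hearts per group), coloured by class. All but Nlrc5, drawn from 1 of its 19 clusters that disagree in sign, lie left of 0 in the deposited values (Dtx3l turns to 0.021 with a further quantile normalization), from -0.46 for Parp14 to 0.13 for Nlrc5, and 0 of the 29 pass an adjusted p of 0.05.

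The heart-by-heart values show where the average came from. ETX replicate 6 lay below all 3 PBS hearts in 26 of 29 members and ETX replicate 7 in 24, against 32.1% and 33.4% of all genes tested. ETX replicate 10 lay below all 3 PBS hearts in 6 members, inside the PBS range in 16 and above it in 7, against 30.7%, 41.7% and 27.6% of all genes. It was the highest of the 3 ETX hearts in 28 of 29 members (36.6% of all genes), the exception being Oas1a. The median of member values minus the PBS mean was -0.45 for ETX replicate 6, -0.30 for replicate 7 and -0.023 for replicate 10. The SD was larger in ETX than in PBS for 21 of the 29 members, against 45.9% of all genes. ETX replicates 6 and 7 were also the ETX hearts with high atrial transcripts. PBS replicate 3, with atrial transcripts as high, had a median of 0.00078. That median is taken against a PBS mean that includes this heart, which also held lung transcripts. Whether atrial tissue caused these values was not tested. Fits that take atrial and lung tissue into account are given at the end.

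**Figure D2:**
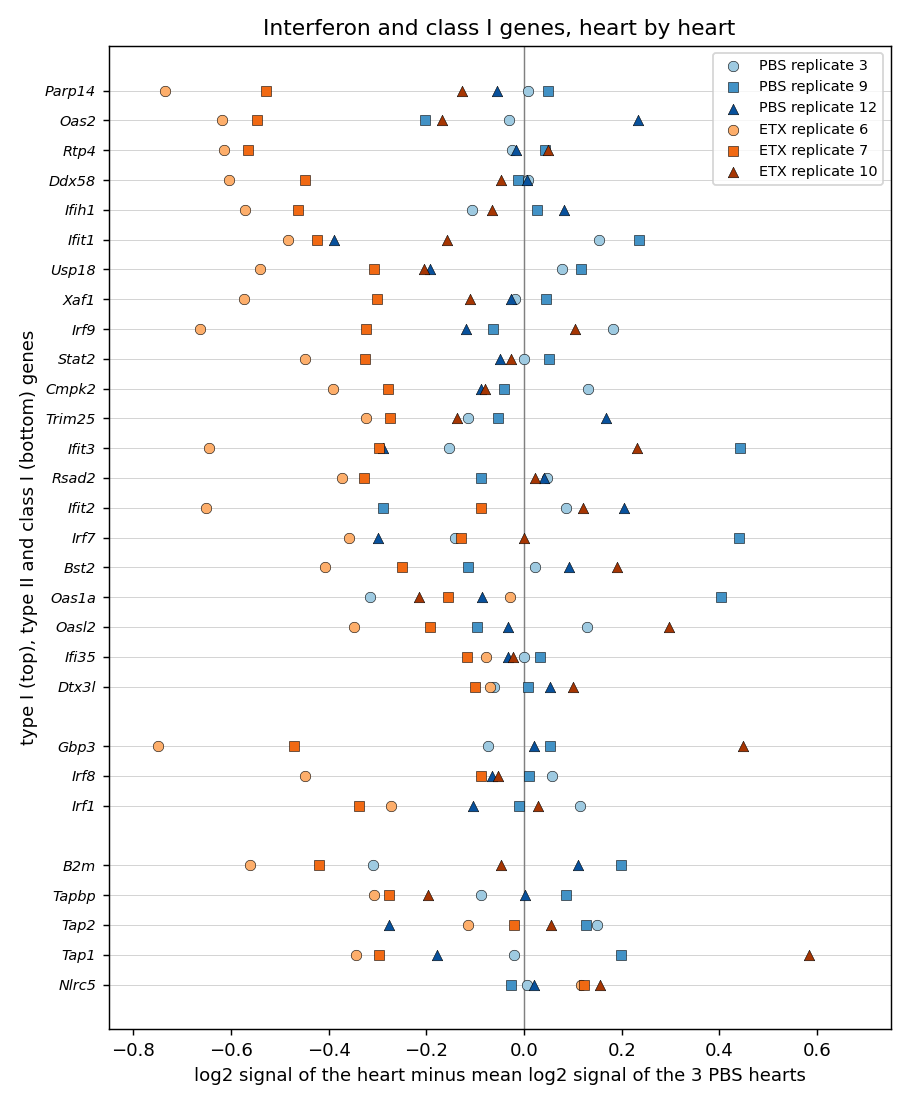
Each row is a gene and each point a heart, drawn as its log2 signal minus the mean of the 3 PBS hearts (vertical line at 0), with blue for PBS and orange to brown for ETX. The points of ETX replicates 6 and 7 lie left of the PBS points in 26 and 24 of the 29 genes, while those of ETX replicate 10 lie within the PBS range in 16.

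**Figure D3:**
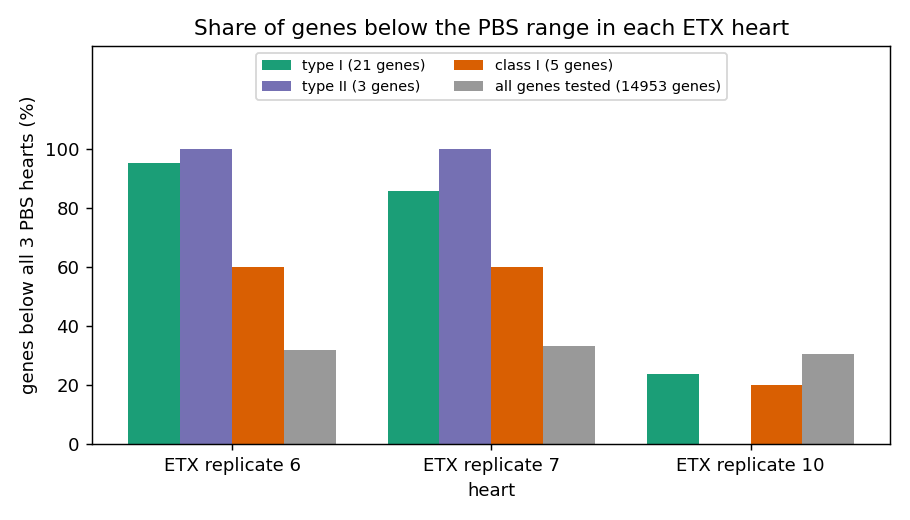
Percent of genes whose value in an ETX heart lay below all 3 PBS hearts, by class (21 type I, 3 type II and 5 class I genes) and for all 14953 genes tested. The type I bars stand at 95.2%, 85.7% and 23.8% for ETX replicates 6, 7 and 10, and the bars for all genes at 32.1%, 33.4% and 30.7%.

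Type I effectors block viral entry, translation and replication. All 12 that were measured had a negative difference, with a median of -0.23, and none was called. Oas2, which makes the 2-5A messenger that activates RNase L, was at 4.61, 4.44 and 4.87 in PBS replicates 3, 9 and 12 and at 4.02, 4.09 and 4.47 in ETX replicates 6, 7 and 10. ETX replicate 10 lay within the PBS range, and the difference was -0.44 (SE 0.14, 95% interval -0.78 to -0.11, limma adjusted p = 0.131). Xaf1, a proapoptotic partner of XIAP, was at 5.69, 5.76 and 5.68 in PBS and 5.14, 5.41 and 5.60 in ETX. Its groups did not overlap, although ETX replicate 10 was only just below PBS, and it differed by -0.33 (SE 0.11, limma adjusted p = 0.142). Rtp4, a chaperone of membrane receptors that is induced by interferon, was at 6.46, 6.53 and 6.47 in PBS. It was at 5.88 and 5.92 in ETX replicates 6 and 7 and at 6.54 in ETX replicate 10, as high as any PBS heart (difference -0.38, limma adjusted p = 0.224).

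Cmpk2 and Rsad2 code for a mitochondrial nucleotide kinase and for viperin, which makes a chain-terminating nucleotide. Cmpk2 was at 5.85, 5.67 and 5.63 in PBS and at 5.32, 5.44 and 5.64 in ETX (difference -0.25, SE 0.10, limma adjusted p = 0.192). Rsad2 was at 7.90, 7.77 and 7.90 in PBS and at 7.48, 7.53 and 7.88 in ETX (difference -0.23, SE 0.11, limma adjusted p = 0.28). In both, ETX replicates 6 and 7 lay below PBS and ETX replicate 10 within it. Bst2 codes for tetherin, which holds budding virus at the membrane. It was at 7.78, 7.64 and 7.84 in PBS, at 7.35 and 7.50 in ETX replicates 6 and 7, and at 7.94 in ETX replicate 10, the highest of the 6 hearts (difference -0.16, limma adjusted p = 0.58).

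The IFIT proteins bind viral RNA and hinder its translation. Ifit1 was at 5.74, 5.83 and 5.20 in PBS and at 5.11, 5.17 and 5.43 in ETX (difference -0.35, 95% interval -0.74 to 0.03, limma adjusted p = 0.26). PBS replicate 12, without lung transcripts, lay close to the ETX hearts, and with it as the single PBS heart the difference was 0.034. Ifit2 and Ifit3 differed by -0.21 and -0.24 and their groups overlapped (limma adjusted p = 0.599 and 0.623). Ifit3 ranged from 5.59 to 6.32 in PBS and from 5.24 to 6.11 in ETX, and its difference was 0.12 once lung markers entered as a covariate. The remaining effectors, Oas1a (-0.13), Oasl2 (-0.08) and Ifi35 (-0.07), had limma adjusted p between 0.552 and 0.805. The IFIT, OAS and guanylate-binding genes have close relatives, so probes may read more than 1 of them.

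The modifier group joins ISG15, a ubiquitin-like tag, with enzymes that add or remove such tags, ubiquitin or ADP-ribose. Parp14, a mono-ADP-ribosyl transferase, had the largest difference of the 29. It was at 6.75, 6.79 and 6.68 in PBS and at 6.01, 6.21 and 6.61 in ETX, without overlap (difference -0.46, SE 0.14, 95% interval -0.79 to -0.14, a fold of 1.38, limma adjusted p = 0.112). Usp18 removes ISG15 from proteins and damps the receptor. It was at 5.41, 5.45 and 5.14 in PBS and at 4.79, 5.03 and 5.13 in ETX, and did not overlap although PBS replicate 12 and ETX replicate 10 nearly met (difference -0.35, SE 0.11, limma adjusted p = 0.13). Trim25, the ubiquitin ligase that activates RIG-I, was at 6.78, 6.84 and 7.06 in PBS and at 6.57, 6.62 and 6.76 in ETX, again without overlap (difference -0.25, SE 0.09, limma adjusted p = 0.176). Dtx3l, a ubiquitin ligase that works with PARP9, had nearly the same mean in both groups (6.70 ± 0.06 and 6.68 ± 0.11, SD, n = 3, interval of the difference -0.20 to 0.15).

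Both cytosolic RNA sensors lay lower on average by about the same amount. Ddx58, which codes for RIG-I, was tight in PBS at 6.63, 6.61 and 6.63, and at 6.02, 6.18 and 6.58 in ETX. Its groups did not overlap, by a narrow margin in ETX replicate 10 (difference -0.37, SE 0.13, limma adjusted p = 0.153). Ifih1, which codes for MDA5, was at 6.24, 6.38 and 6.43 in PBS and at 5.78, 5.89 and 6.29 in ETX (difference -0.37, SE 0.13, limma adjusted p = 0.15). ETX replicate 10 lay inside the PBS range for Ifih1. Without ETX replicate 10, 3 members were called, all lower: Rtp4 (-0.59, limma adjusted p = 0.0285), Parp14 (-0.63, 0.0332) and Ddx58 (-0.53, 0.0365), where 0.856% of all genes were called lower.

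None of the 3 transcription factors of the type I pathway was called, and in each ETX replicate 6 was lowest. Stat2 was at 6.18, 6.23 and 6.13 in PBS and at 5.73, 5.86 and 6.15 in ETX (difference -0.27, SE 0.11, limma adjusted p = 0.201). Irf9, its DNA-binding partner, was at 6.33, 6.09 and 6.03 in PBS and at 5.49, 5.83 and 6.25 in ETX (difference -0.29, SE 0.18, limma adjusted p = 0.383). For both genes ETX replicates 6 and 7 lay under PBS and ETX replicate 10 within it. Irf7, the factor that amplifies interferon alpha production, was at 5.95, 6.53 and 5.79 in PBS and at 5.73, 5.96 and 6.09 in ETX, with overlap (difference -0.16, limma adjusted p = 0.655). Without PBS replicate 9, the heart with the most lung transcripts, the Irf7 difference was 0.058.

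The type II genes were 3, and none was called (median difference -0.20). Irf1, the factor that switches on class I and guanylate-binding genes, was at 5.91, 5.78 and 5.69 in PBS and at 5.52, 5.45 and 5.82 in ETX (difference -0.19, SE 0.11, limma adjusted p = 0.344). Irf8, a factor that is also typical of macrophages and dendritic cells, was at 5.36, 5.31 and 5.24 in PBS and at 4.86, 5.22 and 5.25 in ETX (difference -0.20, SE 0.11, limma adjusted p = 0.34). Gbp3, a guanylate-binding protein of cell-autonomous defence, had the widest spread in ETX. It was at 6.85, 6.98 and 6.95 in PBS, at 6.18 and 6.45 in ETX replicates 6 and 7, and at 7.37 in ETX replicate 10, above every PBS heart (difference -0.26, 95% interval -0.86 to 0.35, limma adjusted p = 0.617).

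The differences of the 5 class I genes ran from -0.34 to 0.13, with a median of -0.03, and none was called. Tapbp codes for tapasin, which bridges TAP and the class I heavy chain. It was at 7.44, 7.61 and 7.53 in PBS and at 7.22, 7.25 and 7.33 in ETX, and was the member with the smallest p (difference -0.26, SE 0.07, 95% interval -0.43 to -0.09, a fold of 1.20, limma adjusted p = 0.0904). All 3 ETX hearts lay below PBS, ETX replicate 10 included, and in the 6 fits without 1 heart the difference ran from -0.30 to -0.22. B2m, the light chain of every class I molecule, was at 10.70, 11.20 and 11.12 in PBS and at 10.45, 10.59 and 10.96 in ETX. ETX replicate 10 overlapped with PBS, and the difference was -0.34 (SE 0.16, 95% interval -0.72 to 0.04, limma adjusted p = 0.274).

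The TAP transporter subunits showed no group difference beyond their spread. Tap1 was at 5.65, 5.87 and 5.50 in PBS, at 5.33 and 5.38 in ETX replicates 6 and 7, and at 6.26 in ETX replicate 10, the highest of all 6 hearts (difference -0.02, 95% interval -0.56 to 0.52, limma adjusted p = 0.972). Tap2 was at 5.88, 5.85 and 5.45 in PBS and at 5.61, 5.71 and 5.78 in ETX (difference -0.03, 95% interval -0.30 to 0.25, limma adjusted p = 0.923). These intervals are wide, above all that of Tap1, and the sign of both genes turned once lung markers entered as a covariate (0.17 and 0.20). Nlrc5, the activator of class I genes, is read by 19 clusters on this array, and on the brightest, which was used, it was at 8.11, 8.07 and 8.12 in PBS and 8.22, 8.23 and 8.26 in ETX (difference 0.13, SE 0.06, limma adjusted p = 0.25). The clusters disagreed: 14 were higher in ETX and 5 lower, from -0.22 to 0.34, so the sign of Nlrc5 in the counts above is that of 1 cluster. Both clusters of Irf1, the other member with more than 1, were lower in ETX on average.

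Further genes of the pathway came from lists drawn up for this description, some of which share genes. Psmb8, Psmb9, Psmb10, Psme1 and Psme2 are in both the type II and the class I list, and Socs1 in both the type II and the receptor list. Both chains of the type I receptor lay lower in all 3 ETX hearts without reaching the threshold. Ifnar2 was at 7.67, 7.73 and 7.67 in PBS and at 7.29, 7.35 and 7.48 in ETX (difference -0.32, SE 0.07, limma adjusted p = 0.0531), and it passed with 4 of the 18 other settings, such as trend and robust options of the test (0.0225). Ifnar1 was at 7.28, 7.29 and 7.27 in PBS and at 7.01, 6.95 and 7.15 in ETX (difference -0.24, SE 0.07, limma adjusted p = 0.11). Ifngr1, of the interferon gamma receptor, differed by -0.23 (0.2), Il10rb, shared by the interferon lambda and interleukin-10 receptors, by -0.20 (0.148), and the STAT inhibitor Pias1 by -0.26 (0.103). Of the 16 receptor and signalling genes tested 14 had a negative difference and 0 were called in limma. At an unadjusted limma p under 0.05 there were 6, all lower, against 13.1% of all genes. The median of the 16, -0.13, was -0.072 without PBS replicate 9.

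The interferon ligands themselves gave no signal of a difference. Of 21 listed, 16 had a cluster of their own and 6 passed the filter on dim genes, 3 of these with a negative and 3 with a positive difference, and 0 were called in limma or had an unadjusted p under 0.05. Ifnb1 was among the dim genes, at 2.77 to 2.81 in PBS and 2.78 to 2.88 in ETX, near the low end of the array. Ifng was at 3.44, 3.61 and 3.82 in PBS and 3.56, 3.63 and 3.73 in ETX, just above the filter. Ifna5 and Ifna14, the ligands with the smallest p, differed by 0.19 and -0.13 (limma adjusted p = 0.416 and 0.439).

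Among the genes that sense nucleic acids upstream of interferon, 2 of 18 fell and 0 rose, against 2.43% of all genes called lower. Tlr7, the endosomal receptor for single-stranded RNA, was at 4.31, 4.59 and 4.37 in PBS and at 3.97, 3.86 and 3.89 in ETX (1.43-fold lower, difference -0.52, SE 0.09, limma adjusted p = 0.0268). Sting1, the adaptor of cytosolic DNA sensing, was at 6.16, 6.00 and 5.90 in PBS and at 5.26, 5.50 and 5.67 in ETX (1.46-fold lower, limma adjusted p = 0.0471). In neither did the groups overlap, and the 3 ETX hearts lay close together for Tlr7. Of the 6 fits without 1 heart, Tlr7 passed in that without PBS replicate 9 alone (limma adjusted p up to 0.103 in the others) and Sting1 in 0 (0.0558 to 0.141). Unc93b1, which carries Toll-like receptors to endosomes, differed by -0.43 (limma adjusted p = 0.0581) and their adaptor Myd88 by -0.35 (0.1). The list as a whole had a median of -0.16, with 14 of 18 negative.

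In the list of 32 further type I genes, 30 had a negative difference with a median of -0.14, and 0 were called in limma. At an unadjusted limma p under 0.05 there were 9, all lower, against 13.1% of all genes. Ifitm2 and Ifitm3, which keep viruses from fusing with membranes, differed by -0.31 and -0.39 (limma adjusted p = 0.0659 and 0.078), and their groups did not overlap. Ifitm2 was at 9.63, 9.84 and 9.76 in PBS and at 9.42, 9.39 and 9.49 in ETX. Helz2, a helicase, differed by -0.35 (0.0756), and Trim30a by -0.47 (0.15), with ETX replicate 10 at 6.85 within the PBS range of 6.79 to 6.96. Leaving out ETX replicate 6 gave these 32 genes a median of -0.087. Leaving out ETX replicate 10 gave -0.24, with 2 genes called lower, where 0.856% of all genes were called lower. Of 17 further type II genes 12 had a negative difference, with a median of -0.10, and 1 fell, against 2.43% of all genes called lower. The median was 0.023 without ETX replicate 6, -0.049 without ETX replicate 7 and -0.19 without ETX replicate 10. It was -0.055 without PBS replicate 9 and -0.16 without PBS replicate 12. Without ETX replicate 10, 3 of these 17 genes were called lower, again where 0.856% of all genes were. The mean level of the list in ETX replicate 10, 6.31, lay above the PBS range of 5.99 to 6.18, and that in ETX replicates 6 and 7, 5.77 and 5.81, below it. Genes that put ETX replicate 10 above every PBS heart, named after their values were seen, included the guanylate-binding Gbp4 (7.66, against 6.60 to 6.62 in PBS) and Gbp7 (8.96, against 8.36 to 8.42), and the immunity-related GTPases Iigp1 (7.02, against 5.74 to 5.88) and Irgm1 (6.82, against 6.10 to 6.42). None of these 4 was called (limma adjusted p from 0.539 to 0.996). The gene that fell was Cxcl9, a chemokine that draws T cells. It was at 6.06, 6.53 and 6.21 in PBS and at 4.87, 5.23 and 5.34 in ETX (2.17-fold lower, difference -1.12, SE 0.15, limma adjusted p = 0.0129), and ETX replicate 10 lay with the other ETX hearts there, unlike in Gbp4 or Iigp1. The immunoproteasome subunits Psmb8 and Psmb9 differed by -0.34 and -0.15 and the proteasome activator Psme1 by -0.21 (limma adjusted p = 0.287, 0.569 and 0.137).

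Of 21 further class I and peptide loading genes 4 fell and 0 rose, against 2.43% of all genes called lower, with 18 negative and a median of -0.21. The count called was 1 without ETX replicate 6, ETX replicate 7 or PBS replicate 12, 2 without PBS replicate 3 or 9, and 3 without ETX replicate 10. Calls over all genes dropped in these fits too, from 533 to between 94 and 241. Calr, Canx and Pdia3 fold and load class I heavy chains, and are also general chaperones of the endoplasmic reticulum. Calr was at 9.89, 9.96 and 9.91 in PBS and at 9.31, 9.37 and 9.36 in ETX (1.49-fold lower, difference -0.57, SE 0.06, limma adjusted p = 0.00649), and it passed in all 6 fits without 1 heart. Canx was at 10.11, 10.25 and 10.23 in PBS and at 9.68, 9.72 and 9.80 in ETX (1.38-fold lower, limma adjusted p = 0.0202). Pdia3 was at 9.09, 9.19 and 9.34 in PBS and at 8.73, 8.83 and 8.72 in ETX (1.36-fold lower, limma adjusted p = 0.0329). In all 3 genes the ETX hearts lay close together and well below PBS, ETX replicate 10 among them, unlike Tap1 or Gbp3. H2-T24, a nonclassical class I gene, was at 5.18, 5.38 and 5.28 in PBS and at 4.65, 4.53 and 4.97 in ETX (1.48-fold lower, limma adjusted p = 0.0428). Canx passed in 3 of the 6 fits without 1 heart, H2-T24 in 1 and Pdia3 in 0.

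**Figure D4:**
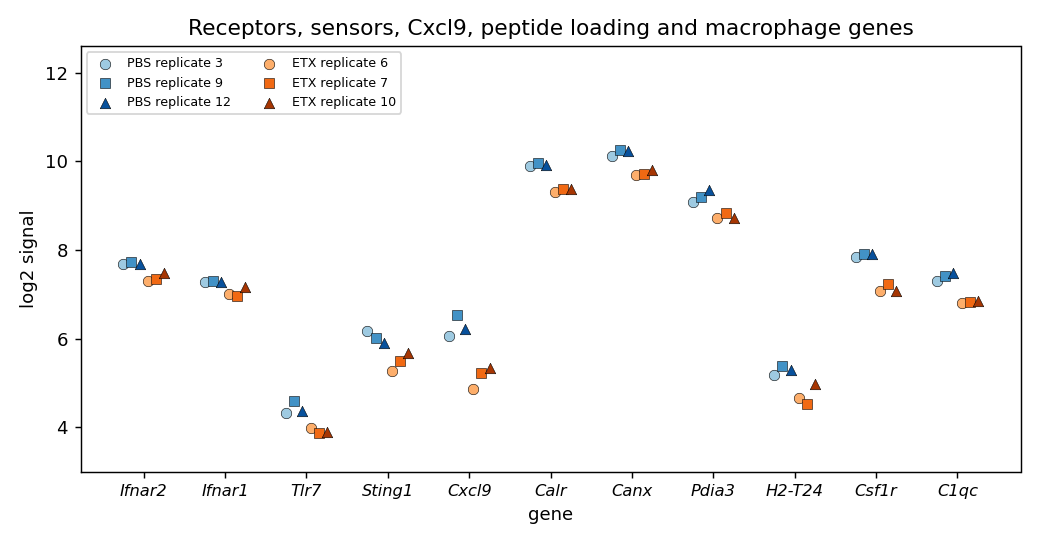
Log2 signal of each heart for interferon receptors, nucleic acid sensors, Cxcl9, peptide loading genes and the macrophage genes Csf1r and C1qc, with blue for PBS and orange to brown for ETX; levels are not compared between genes. The genes shown are a selection, all called in limma but Ifnar1 and Ifnar2, and other genes of the same lists overlapped, such as Ifngr1, Tlr3 and Mertk. In each gene of this selection the 3 ETX hearts lie below the 3 PBS hearts, as in Calr, at 9.31 to 9.37 against 9.89 to 9.96.

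Macrophage and endothelial markers, of cell types that can hold interferon genes, also lay lower in ETX on average. All 17 macrophage and myeloid markers had a negative difference, with a median of -0.51, and 7 were called, against 2.43% of all genes called lower. The count called was 2 without PBS replicate 3 or ETX replicate 10, 3 without ETX replicate 6 or 7, 4 without PBS replicate 12 and 5 without PBS replicate 9, while the median stayed between -0.54 and -0.47. Over all genes, calls dropped from 533 to between 94 and 241 in these fits. The sum of the 17 markers' log2 levels was 111 to 119 in PBS and 104 to 106 in ETX. ETX replicate 10, at a mean of 6.24, lay with ETX replicates 6 and 7 at 6.15 and 6.17. Those called were Csf1r, Adgre1 (which codes for F4/80), Fcgr3, Tyrobp and the complement genes C1qa, C1qb and C1qc, from -0.48 for C1qa to -0.80 for Tyrobp. Csf1r, the macrophage growth factor receptor, was at 7.06, 7.22 and 7.08 in ETX against 7.83 to 7.91 in PBS. All 12 endothelial markers were negative too, 10 with a further quantile normalization (median -0.25, sum 107 in PBS and 102 to 104 in ETX), and 4 were called: Cdh5, Tie1, Esam and Aplnr, from -0.34 for Esam to -0.98 for Aplnr. Without PBS replicate 3 none of the endothelial markers was called in limma, without ETX replicate 7 it was 1, without ETX replicate 6, PBS replicate 9 or PBS replicate 12 it was 2, and without ETX replicate 10 it was 3. Of the 5 tested T and NK cell markers 1 fell, Cd4 (-0.44, limma adjusted p = 0.0468), which mouse macrophages can share. That call held in 1 of the 6 fits without 1 heart (adjusted p up to 0.144) and was lost in 12 of the 17 other settings. The sum of the 5 was 20.9 to 21.4 in PBS and 20.7 to 21.0 in ETX. They were Cd3e, Cd4, Cd8a, Cd8b1 and Prf1, while Ncr1 and Klrb1c, which mark NK cells, were left out as dim. Dendritic cell markers (6 tested, the member Bst2 among them) and B cell markers (5 tested) had 0 calls in limma. At an unadjusted limma p under 0.05 there were 0 and 1. Their sums were 28.5 to 29.1 and 19.2 to 20.1 in PBS and 28.4 to 28.7 and 19.2 to 19.7 in ETX. Median differences were -0.085 for dendritic, 0.034 for T and NK and 0.025 for B cell markers. The part of these cell types in the members' values was not tested.

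Lung and atrial tissue were taken into the fit in turn. With the lung-marker score as a covariate 23 of the 29 members were negative, and the median of the type I genes was -0.24, of the type II genes -0.15 and of the class I genes 0.11. With PBS replicate 12 as the single PBS heart, without PBS replicates 3 and 9, 23 were negative and the type I median was -0.22. With the atrial-marker score as a covariate 26 were negative and the type I median was -0.19. Without PBS replicate 3 and ETX replicates 6 and 7, where ETX replicate 10 alone stands for its group, 16 of 29 were negative and the medians were -0.027, 0.086 and 0.13. The lone heart is assumed there to vary like the others. No member was called with either score. Over all 14953 genes, calls dropped from 533 to 75 with the lung-marker score and to 94 with the atrial-marker score.

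The same fits changed the further lists. Over all genes, those called lower dropped from 363 to 58 with the lung-marker score and to 70 with the atrial-marker score. With the lung-marker score, 0 of the 4 called peptide loading and class I genes passed in limma (Calr at an adjusted p of 0.0509). Of the 21 genes 13 were negative and the median was -0.080. Without PBS replicates 3 and 9, 13 were negative and the median was -0.082. With the lung-marker score Cxcl9 did not pass either (0.0824), and the further type II genes had 6 of 17 negative and a median of 0.023. Neither Tlr7 nor Sting1 passed with the lung-marker or the atrial-marker score. With lung markers in the fit, the sensing genes had a median of -0.11, the receptor and signalling genes one of -0.080, and 22 of the 32 further type I genes were negative (median -0.12). With the atrial-marker score 1 peptide loading gene, Calr, passed (0.0293), as did Cxcl9 (0.0371), and the median of the further type II genes was -0.015. Without PBS replicate 3 and ETX replicates 6 and 7, 16 of the 32 further type I genes were negative (median 0.0018) and the median of the further type II genes was 0.20. Macrophage markers called numbered 3 with the lung-marker score (15 of 17 negative) and 2 with the atrial-marker score. Without PBS replicates 3 and 9 their median was still -0.49. Endothelial markers called numbered 1 with either score, and their median was -0.30 without PBS replicates 3 and 9. With the Xist level as a covariate 0 of the 18 sensing genes passed in limma, so neither Tlr7 nor Sting1. Of the further lists 1 of 21 class I and peptide loading genes and 1 of 17 type II genes passed there. Macrophage markers called numbered 3 of 17 and endothelial markers 2 of 12, against 89 genes called lower over the array.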

How the data were processed

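Total RNA of 6 hearts (3 PBS, 3 ETX) was measured on 1 array each. The deposited log2 values were made by the authors with Affymetrix Expression Console and RMA, per the submitters' processing notes, which give no version; RMA corrects background, normalizes quantiles and summarises probes, and compresses differences of dim genes. Of 35556 clusters 21789 had 1 gene symbol, 1621 several and 12146 none in the platform annotation; 21698 of the first matched RefSeq by gene ID. For a gene with several clusters of its own the brightest was used, and genes under the lower quartile of gene means (3.45) were left out. ETX and PBS were compared across all genes with the two-sided test of limma 3.58.1 under R 4.3.3 (lmFit, eBayes), adjusted by Benjamini-Hochberg over 14953 genes and a threshold of 0.05; intervals are 95%. The p-values rest on the spread between these hearts, moderated by limma over all genes. That spread includes differences in tissue content and Xist level. In a simulation of this comparison with 14953 genes, 93 of 100 genes changed 1.5-fold and 100 of 100 changed 2-fold were recovered. Its errors were drawn independently for each gene, so it held no shift that a heart shares across genes, such as tissue content. It therefore does not show that a 1.5-fold change would be called in members with a wide spread, such as Gbp3 (SE 0.26). Alternatives were other filters, eBayes options, array weights, normalizations, the mean of clusters, tissue scores or Xist as a covariate, and hearts left out. The fit without the 3 hearts with high atrial transcripts was added after seeing the data. Members and lists were chosen with earlier results of these data known, so list medians carry no test. All members are named; values of every heart are given for those called, the 4 with the smallest p in each class and a fixed few; of the other lists the called genes and up to 4 with the smallest p are named, with a fixed few, and of the marker lists the called genes. Values of other members shown were chosen after they were seen. Promoter sequences are RefSeq's, on GRCm38.p6. The build of the array annotation is not given in the sources used here. Python 3.11.15 and matplotlib 3.10.9 made the figures.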

Additional observations from a re-analysis of the deposited data

How the results depend on the processing

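The count of called members stayed at 0 except without ETX replicate 10 (range without 1 heart 0 to 3). The 533 genes called over the array became 909 without the dimmer genes, 957 with trend and robust options, 75, 94 and 126 with the lung score, the atrial score or Xist in the fit, 19 without PBS hearts 3 and 9 and 2 without PBS heart 3 and ETX hearts 6 and 7; without 1 heart they ran from 94 to 241. Without 1 heart the class I median ran from -0.29 to 0.037, the type I median from -0.39 to -0.18 and the type II median from -0.30 to -0.071. Without PBS heart 3 and ETX hearts 6 and 7 the medians were -0.027 (type I), 0.086 (type II) and 0.13 (class I). Of the fits of single members 479 kept direction and side of the threshold, 3 gained a call and 38 turned in sign, none of the latter called. Signs turned for Ifng with arrays centred on their median (-0.011), for Dtx3l (0.021) and Ifng (-0.0021) with quantile normalization, and for Dtx3l (0.036) and Tap1 (0.18) with the atrial score. With the lung score they turned for Ifit3 (0.12), Oas1a (0.070), Irf7 (0.19), Tap1 (0.17), Tap2 (0.20), Ifng (-0.11) and Psmb9 (0.024). Without PBS hearts 3 and 9 they turned for Ifit1 (0.034), Ifit3 (0.052), Irf7 (0.14), Tap1 (0.16), Tap2 (0.25), Ifng (-0.18) and Psmb9 (0.076). Without PBS heart 3 and ETX hearts 6 and 7 they turned for Ifit2 (0.16), Ifit3 (0.15), Oasl2 (0.36), Rsad2 (0.047), Bst2 (0.20), Rtp4 (0.037), Dtx3l (0.070), Irf9 (0.20), Irf1 (0.086), Gbp3 (0.41), Tap1 (0.57), Tap2 (0.13), Ifna14 (0.053) and Psmb9 (0.20). Without 1 heart the differences ran from -0.37 to 0.016 for Ifit2, -0.29 to 0.068 for Oas1a, -0.27 to 0.052 for Oasl2, -0.085 to 0.016 for Dtx3l, -0.31 to 0.058 for Irf7, -0.32 to 0.14 for Tap1, -0.17 to 0.048 for Tap2 and -0.075 to 0.11 for Ifng. The causes were not tested. No paired analysis was run, because the labels give no pairing of hearts between the groups. The values hold no detection call, so levels near the low end, as of Ifnb1 and Ifng, give no reliable difference.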
